A study of Homo sapiens with 8 samples.

Results

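The genes described here are the core of the MHC class I antigen presentation pathway. They are 9 genes chosen by name, with earlier results of these data known: the heavy chain genes HLA-B, HLA-C, HLA-E and HLA-F, the light chain gene B2M, the peptide transporter genes TAP1 and TAP2, the tapasin gene TAPBP and the transactivator gene NLRC5. Each matched 1 of the 56632 gene rows of the deposited table, and all 9 were among the 18431 genes that had enough counts to be tested. The libraries came from 4 related human mammary epithelial cell lines called M1 to M4, with 2 biological replicates each. M1 is MCF10A, an immortalized line that does not form tumors, and M2 is MCF10AT1k.cl2, made from it with an activated HRAS gene and passage as a xenograft. M3 (MCF10Ca1h) and M4 (MCF10CA1a.cl1) were grown out from carcinomas that M2 cells formed in mice, and carry that HRAS history as well. In mice, the tumors of M3 are of lower grade than those of M4, a line that also seeds metastases. Each of these 3 lines is a single derivative of M1, and the cl endings of M2 and M4 name clones. All lines were grown for 8 days in Matrigel with 2% horse serum. The medium of M1 and M2 held 10 ng/ml EGF (the methods print "M2-M2", taken here to mean M1 and M2), and that of M3 and M4 held none. Between M3 or M4 and the lines M1 and M2, the line and the EGF therefore cannot be told apart.

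Class I molecules display peptides from proteins made inside the cell to cytotoxic T cells and natural killer cells. Peptides cut by the proteasome are pumped into the endoplasmic reticulum by the TAP1-TAP2 transporter, trimmed there, and loaded with the help of tapasin onto a heavy chain paired with B2M. Nearly all nucleated cells express the pathway, and interferons raise it through IRF1 and the transactivator NLRC5, which acts on class I promoters.

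Library totals ran from 69669970 to 107350344 counts, and the members had from 270 counts (NLRC5 in M3 replicate 1) to 71841 counts (B2M in M2 replicate 1). The spread between replicates, as a coefficient of variation over all tested genes, was 0.377 for M1, 0.0574 for M2, 0.307 for M3 and 0.271 for M4. Basal keratinocyte-type genes such as KRT5 and the general epithelial markers had counts in every library, but their levels differed between lines. In M4 against M1, 2 of the 7 basal markers were called higher and 3 lower. Of the 5 general epithelial markers, 3 were called higher. Among all tested genes, 9.48% were called higher and 11.2% lower. The leukocyte marker genes summed to 37.0 to 67.1 CPM (counts scaled to library size, with edgeR's TMM method) over the 8 libraries, and 3 of the 8 markers, PTPRC, CD3E and MS4A1, had at most 3 counts in any library. Of the 5 tested leukocyte markers, CD68 was higher (9.55 and 4.03 CPM in the M1 libraries, 51.4 and 39.0 CPM in those of M4) and CD14 and CD74 were lower in M4 against M1, while LCP1 and ITGAM were not called. The CD68 and CD74 calls were lost without either M4 replicate, and the CD68 call was also lost without M1 replicate 2. The fibroblast marker genes summed to 59.8 and 9.09 CPM in M1, 74.4 and 72.2 for M2, 9.54 and 15.6 for M3, and 7.52 and 6.09 for M4. The endothelial ones summed to at most 3.12 CPM in any library. The part of all these marker genes in the results was not tested. Fewer cells of a type and less RNA per cell cannot be told apart in these bulk libraries.

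M4 replicate 1 stood apart from the other libraries in genes that interferon induces. IFIT1, an antiviral RNA-binding protein, was at 39.0 CPM there and at 0.482 to 1.67 CPM in the other libraries. IFI6 was at 96.5 CPM there and at 1.70 to 2.57 CPM elsewhere. IFNB1, the gene of interferon beta, had 29 counts in M4 replicate 1, 2 counts in M2 replicate 1 and 0 in each of the other 6 libraries. Of the 30 interferon-stimulated genes in the list used here, 29 were higher in M4 replicate 1 than in M4 replicate 2, so the M4 replicates are given separately below, and each call of a member in M4 against M1 is also given without each of them. The study's own expression table gives the names M1 replicate 2 and M2 replicate 1 to each other's libraries. The GEO labels are used here, and the values under the exchanged names are given below where they end the call of a named gene. Among the leukocyte markers above, the exchanged names gave 1 lower call in M4 against M1, where the GEO labels gave 2 (CD14 and CD74).

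Against M1, M4 cells had higher HLA-B, HLA-F, TAP1, TAP2 and NLRC5 and lower HLA-C, while HLA-E, B2M and TAPBP did not pass the test. A gene was counted as called with an adjusted p under 0.05 (edgeR's quasi-likelihood test, Benjamini-Hochberg adjustment over the 18431 genes) with a fold change above 2 in either direction, which is 1 on the log2 scale. In M4 against M1, 6 of the 9 members were called, against 20.7% of all tested genes. Of these, 5 were higher, against 9.48% of all genes, and 1 was lower, against 11.2%. The median log2 fold change of the 9 members was 1.37, and that of all tested genes was -0.02. In M3 against M1, 1 of 9 members (HLA-B) was called, against 13.5% of all genes. In M2 against M1, 0 of 9 were called by edgeR or by DESeq2, against 3.37% of all genes, and 3 of 9 had an unadjusted p under 0.05 in edgeR. In M3 against M2, edgeR called 0 of 9, against 4.15% of all genes, DESeq2 called 1 and 2 had an unadjusted p under 0.05. The percentages are shares of edgeR calls. No share of all genes was taken at the unadjusted threshold, so the unadjusted counts have no background to be read against. In M4 against M2, 3 of 9 were called (HLA-B, HLA-C and HLA-F), against 13.9% of all genes, and in M4 against M3, 2 of 9 (HLA-C and HLA-F), against 10.3%. The 3 comparisons with M1 share its libraries.

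**Figure D1:**
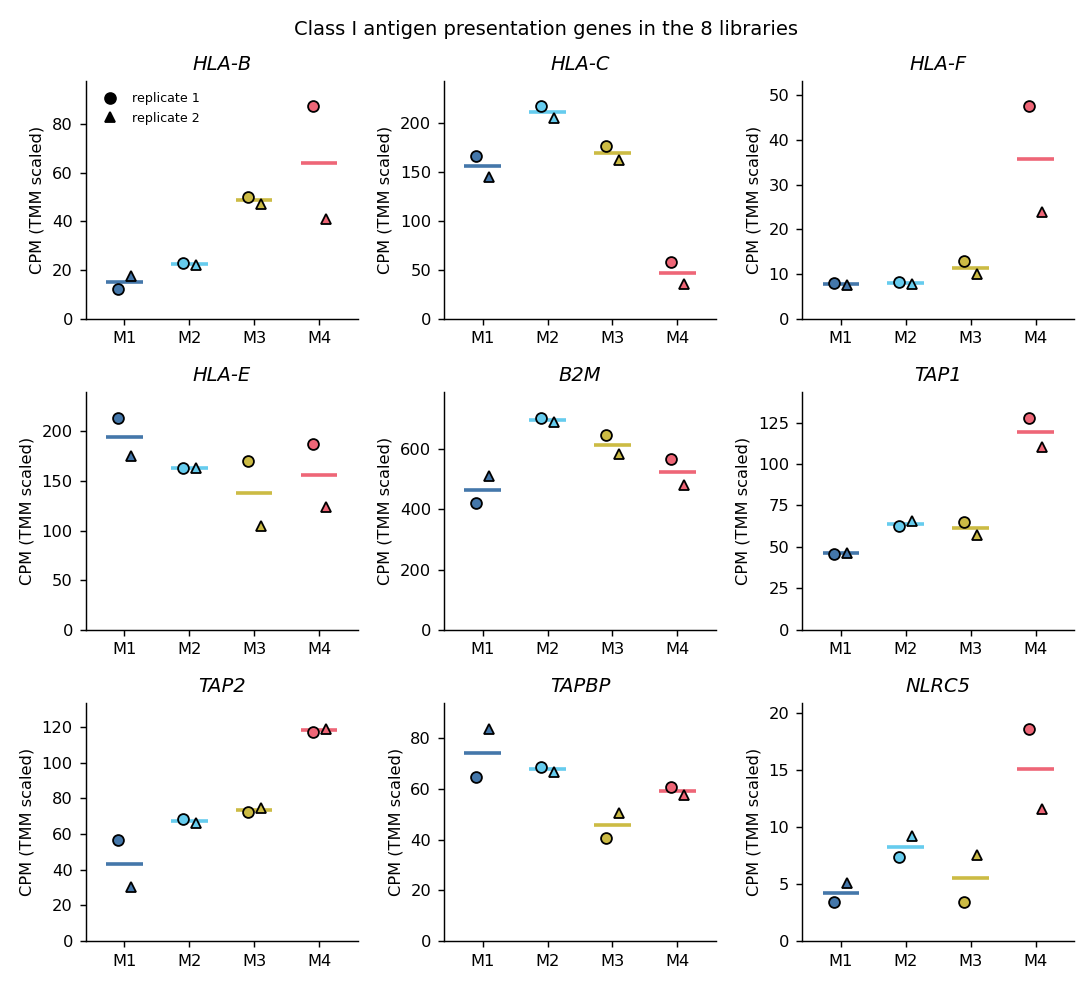
Level of each of the 9 genes in CPM on a linear axis from 0, with circles for replicate 1, triangles for replicate 2 and a bar for the mean of each line. HLA-F, TAP1, TAP2 and NLRC5 are higher in both M4 libraries than in any other library, HLA-C is lower in both, and HLA-B is above M1 and M2 in both the M3 and M4 libraries.

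The heavy chains moved in different directions. HLA-B (chr6:31321649-31334844 on GRCh37, minus strand, 8 exons in its canonical transcript), one of the classical heavy chains that present peptides to T cells, was at 12.3 and 17.5 CPM in M1, 22.7 and 22.0 for M2, 50.1 and 47.1 for M3, and 87.2 and 40.9 for M4 replicates 1 and 2. Its levels in M3 and M4 did not overlap with those in M1 or M2, and the M3 levels lay between those of the M4 replicates. HLA-B was 4.30-fold higher in M4 than in M1 (log2 fold change 2.10 ± 0.34 SE, edgeR adjusted p = 0.00373) and 3.26-fold higher in M3 (1.70 ± 0.34, adjusted p = 0.0121). The rise in M4 was called without M4 replicate 1, where it was smaller (log2 fold change 1.46), and without M4 replicate 2 (2.57). The M3 call was lost without M1 replicate 1 (log2 fold change 1.48, edgeR adjusted p = 0.0602) and with the exchanged names (1.47, adjusted p = 0.135). M4 was 2.86-fold above M2 (adjusted p from edgeR 0.0171), a call lost without either M2 replicate (log2 fold change 1.54 and 1.49, edgeR adjusted p = 0.113 and 0.119) and without M4 replicate 1 (0.87, adjusted p = 0.0645). M4 against M3 had a log2 fold change of 0.40 ± 0.33, which did not pass the test (edgeR adjusted p = 0.428), and the value was -0.25 without M4 replicate 1.

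HLA-C (chr6:31236526-31239907 on GRCh37, minus strand, 8 exons), the neighboring classical heavy chain and a main ligand of inhibitory receptors on natural killer cells, was at 166 and 145 CPM in M1, 217 and 205 for M2, 176 and 162 for M3, and 57.4 and 35.0 for M4. Both M4 libraries were below all 6 others. HLA-C was 3.36-fold lower in M4 than in M1 (log2 fold change -1.75 ± 0.23 SE, edgeR adjusted p = 0.00162), 4.56-fold lower than in M2 (adjusted p = 0.00121) and 3.66-fold lower than in M3 (adjusted p = 0.00378). The fall against M1 was called without M4 replicate 1 (log2 fold change -2.14), without M4 replicate 2 (-1.42) and with the exchanged names (-2.05). HLA-C was the one heavy chain member called lower in any comparison.

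The balance between HLA-B and HLA-C differed between the lines. HLA-B made up 6.89% and 10.8% of the summed HLA-B and HLA-C CPM in M1, 9.50% and 9.69% for M2, 22.2% and 22.5% for M3, and 60.3% and 53.9% for M4. HLA-C was 13.5 and 8.26 times HLA-B in the M1 libraries and 0.658 and 0.856 times HLA-B in the M4 libraries. Their canonical transcripts are 1536 and 1542 bases long, so these ratios change little when taken per length. The sum of both was 179 and 162 CPM in M1, 239 and 227 for M2, 226 and 209 for M3, and 145 and 75.9 for M4. Both M4 sums were below all 6 others. Reads of alleles that differ from the reference were not followed, and their part in these ratios and sums was not tested.

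HLA-F (chr6:29690552-29706305 on GRCh37, plus strand, 7 exons), a nonclassical heavy chain that also reaches the surface without peptide and is read by natural killer cell receptors, was at 8.04 and 7.53 CPM in M1, 8.25 and 7.66 for M2, 12.9 and 9.95 for M3, and 47.5 and 23.8 for M4. Both M4 libraries were above all others. HLA-F was 4.58-fold higher in M4 than in M1 (log2 fold change 2.20 ± 0.32 SE, edgeR adjusted p = 0.00244), 4.48-fold higher than in M2 (adjusted p = 0.00399) and 3.13-fold higher than in M3 (adjusted p = 0.0143). The rise against M1 was called without M4 replicate 1, again smaller (log2 fold change 1.62), and without M4 replicate 2 (2.63). The M4 against M3 call was lost without M4 replicate 1 (log2 fold change 1.06, edgeR adjusted p = 0.0648) and without M3 replicate 2 (1.47, adjusted p = 0.0621). HLA-F-AS1, transcribed from the opposite strand, shares 535 exon bases with HLA-F and was at 0.483 and 0.390 CPM in the M1 libraries and 13.7 and 5.24 CPM in those of M4. The sources used here do not say if reads were counted by strand, so reads of the pair cannot be told apart. HLA-F had more CPM than HLA-F-AS1 in each library.

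HLA-E (chr6:30457286-30461971 on GRCh37, plus strand, 8 exons), which presents leader peptides of other class I chains to natural killer cells, was at 214 and 175 CPM in M1, 163 and 163 for M2, 170 and 104 for M3, and 187 and 124 for M4. The M4 libraries overlapped with those of the other lines, and M4 against M1 had a log2 fold change of -0.32 ± 0.27 (edgeR adjusted p = 0.402). B2M (chr15:45003556-45011049 on GRCh37, plus strand, 4 exons), the light chain shared by all class I molecules, was at 420 and 512 CPM in M1, 706 and 690 for M2, 647 and 583 for M3, and 569 and 483 for M4. Its M4 levels overlapped with those of M1, with a log2 fold change of 0.17 ± 0.17 and an adjusted p of 0.468 from edgeR. In M2 against M1 its log2 fold change was 0.58 ± 0.17 (edgeR adjusted p = 0.0939). No call was made for HLA-E or B2M in any of the 6 comparisons.

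**Figure D2:**
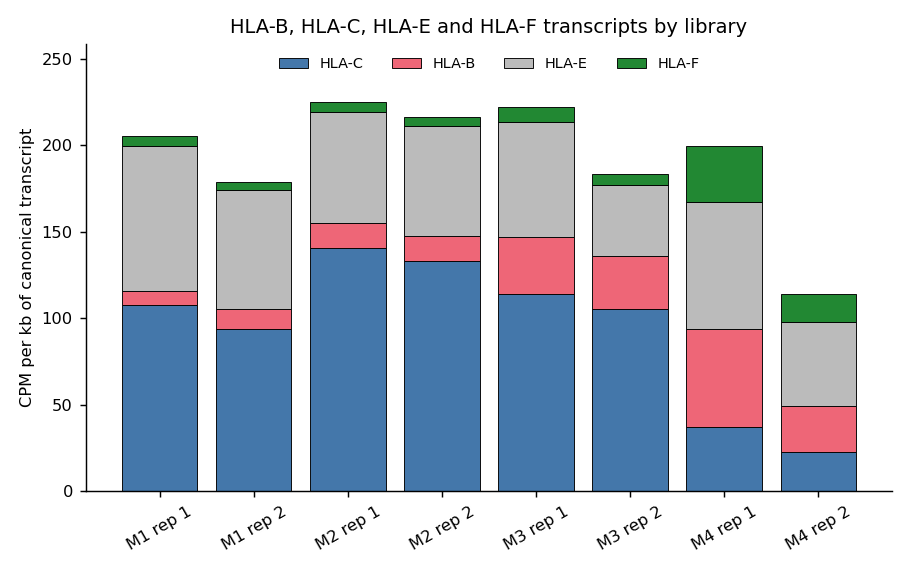
Level of HLA-C, HLA-B, HLA-E and HLA-F in each library as stacked bars from 0, in CPM per kb of canonical transcript. HLA-C is the largest part in the M1, M2 and M3 libraries and HLA-E in the M4 libraries, and the 4 genes sum to 200 in M4 replicate 1 and 114 in M4 replicate 2, against 178.9 to 225 in the other libraries.

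Measured per kb of canonical transcript, B2M had the highest mean level of the 9 members in each line, from 495 CPM per kb in M1 to 740 in M2. In M1 it was followed by HLA-C at 101, HLA-E at 76.3, TAPBP at 21.5, TAP1 at 17.2, HLA-B at 9.71, TAP2 at 7.68, HLA-F at 5.26 and NLRC5 at 0.625 CPM per kb. The replicates of HLA-B and TAP2 overlapped in M1, and so did those of TAP2 and HLA-F. In M4 the order after B2M was HLA-E at 61.1, TAP1 at 44.3, HLA-B at 41.7, HLA-C at 29.96, HLA-F at 24.1, TAP2 at 20.9, TAPBP at 17.1 and NLRC5 at 2.22 CPM per kb. The M4 replicates of HLA-B overlapped with those of HLA-E, TAP1, HLA-C and HLA-F, so the place of HLA-B is not set by these data, while those of HLA-E lay above those of TAP1, and TAP1 above HLA-C and HLA-F. The replicates of HLA-C overlapped with those of HLA-F. In M4 the HLA-F replicates, at 32.1 and 16.1 CPM per kb, lay on either side of those of TAP2 and TAPBP. The place of HLA-F is therefore not set either.

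The promoters of the heavy chains are shown because HLA-B and HLA-C, which changed in opposite directions in M4, are near copies of each other there. Class I promoters are known for a site for NF-kB, an interferon response element read by IRF factors, and a module with an X2 box and a CCAAT-type Y box through which NLRC5 acts. RefSeq windows of 300 bases (250 before the start and 50 from it on, build GRCh38.p14) were given for 7 of the 9 members, and HLA-E and NLRC5 had no entry. Capitals mark matches on either strand to the consensus of NF-kB, to an interferon response element (GAAA, any 2 bases, GAAA), to a shorter form of it (GAANNGAAA), to the X2 core TGACGC and to CCAAT. The HLA-B window lies at chr6:31357130-31357429 on the minus strand, that of HLA-C at chr6:31272043-31272342 on the minus strand and that of HLA-F at chr6:29723184-29723483 on the plus strand.
HLA-B: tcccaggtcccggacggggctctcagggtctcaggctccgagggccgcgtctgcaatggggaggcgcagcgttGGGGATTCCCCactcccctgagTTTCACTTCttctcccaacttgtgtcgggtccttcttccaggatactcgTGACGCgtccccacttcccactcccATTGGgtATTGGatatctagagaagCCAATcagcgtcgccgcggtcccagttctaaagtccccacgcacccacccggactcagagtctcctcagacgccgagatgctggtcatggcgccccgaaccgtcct
HLA-C: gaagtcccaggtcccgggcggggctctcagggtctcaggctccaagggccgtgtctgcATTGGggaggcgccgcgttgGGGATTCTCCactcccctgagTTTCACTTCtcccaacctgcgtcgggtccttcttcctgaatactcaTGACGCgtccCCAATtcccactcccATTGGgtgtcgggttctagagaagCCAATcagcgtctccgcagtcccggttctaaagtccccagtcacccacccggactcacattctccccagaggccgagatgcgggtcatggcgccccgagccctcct
HLA-F: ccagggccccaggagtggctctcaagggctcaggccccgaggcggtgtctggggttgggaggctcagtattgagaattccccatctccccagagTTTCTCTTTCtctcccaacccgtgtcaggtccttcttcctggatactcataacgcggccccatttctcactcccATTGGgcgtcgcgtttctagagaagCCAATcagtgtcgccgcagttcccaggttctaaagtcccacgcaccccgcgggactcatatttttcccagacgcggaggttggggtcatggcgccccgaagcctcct
The HLA-B and HLA-C windows were identical at 269 of 304 alignment columns (88.5%), and HLA-F was identical to HLA-B at 79.6% and to HLA-C at 78.8%. HLA-B and HLA-C both held the shorter interferon element, the X2 core and CCAAT. HLA-B had overlapping NF-kB matches on both strands, HLA-C had 1 on 1 strand, and HLA-F had none and held the full interferon element. Among all 35116 windows of this length, an NF-kB match was present in 5.91%, the full interferon element in 3.57%, the shorter form in 7.66%, the X2 core in 9.14% and CCAAT in 34.6%. A match is a description of letters, and binding was not measured.

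TAP1 and TAP2, the subunits of the peptide transporter, both rose in M4. TAP1 (chr6:32812986-32821593 on GRCh37, minus strand, 11 exons) was at 45.6 and 46.6 CPM in M1, 62.6 and 65.4 for M2, 65.1 and 57.1 for M3, and 128 and 110 for M4. Both M4 libraries were above all 6 others. The rise against M1 was 2.58-fold (log2 fold change 1.37 ± 0.14 SE, edgeR adjusted p = 0.000588), and it was called without M4 replicate 1 (1.26), without M4 replicate 2 (1.49) and with the exchanged names (1.14). Against M2 and M3 the log2 fold changes of 0.89 ± 0.14 and 0.96 ± 0.14 had adjusted p-values of 0.00453 and 0.00623 from edgeR but stayed under the 2-fold limit. PSMB8-AS1, on the opposite strand, shares 672 exon bases with TAP1 and was at no more than 2.60 CPM in any library.

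TAP2 (chr6:32789610-32806516 on GRCh37, minus strand, 12 exons) was at 56.7 and 30.04 CPM in M1, 68.7 and 66.4 for M2, 72.3 and 74.5 for M3, and 117 and 119 for M4. The M4 replicates were closer for TAP2 than for any other member, and both were above all other libraries. The rise against M1 was 2.73-fold (log2 fold change 1.45 ± 0.26 SE, edgeR adjusted p = 0.00571), and it was called without either M4 replicate (1.47 and 1.46). With the exchanged names it was not called (0.92, edgeR adjusted p = 0.128). Without M1 replicate 1, the higher of the M1 libraries, TAP2 was also called higher in M2 against M1 (1.17, edgeR adjusted p = 0.0184) and in M3 against M1 (1.29, adjusted p = 0.00395). Against M2 the log2 fold change was 0.81 ± 0.26 (adjusted p from edgeR 0.0586) and against M3 it was 0.69 ± 0.26 (adjusted p = 0.105). A same-strand gene that reads through TAP2 (ENSG00000250264) shares 2023 exon bases with it and was at 3.72 to 20.2 CPM, so the split of reads between the pair is uncertain.

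TAPBP (chr6:33267471-33282061 on GRCh37, minus strand, 8 exons), whose product tapasin bridges the transporter and empty class I molecules, was at 64.8 and 83.7 CPM in M1, 68.7 and 66.7 for M2, 40.6 and 50.7 for M3, and 60.7 and 57.5 for M4. Both M3 libraries were below all 6 others. M3 differed from M1 by a log2 fold change of -0.70 ± 0.17 (edgeR adjusted p = 0.0253), which passed the p threshold but not the 2-fold limit. In M4 against M1 it was -0.33 ± 0.17 (adjusted p from edgeR 0.179) and it did not pass the test.

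The windows of TAP1 (chr6:32853655-32853954, minus strand, the first of 2 listed starts) and TAP2 (chr6:32838690-32838989, minus strand) on GRCh38.p14 are shown for the interferon elements they hold, marked as above.
TAP1: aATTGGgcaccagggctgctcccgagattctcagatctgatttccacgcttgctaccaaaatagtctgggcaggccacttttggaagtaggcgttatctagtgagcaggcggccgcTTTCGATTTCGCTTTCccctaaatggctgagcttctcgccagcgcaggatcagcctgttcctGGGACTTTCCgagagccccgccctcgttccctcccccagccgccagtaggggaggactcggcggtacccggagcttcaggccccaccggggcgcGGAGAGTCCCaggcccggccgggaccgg
TAP2: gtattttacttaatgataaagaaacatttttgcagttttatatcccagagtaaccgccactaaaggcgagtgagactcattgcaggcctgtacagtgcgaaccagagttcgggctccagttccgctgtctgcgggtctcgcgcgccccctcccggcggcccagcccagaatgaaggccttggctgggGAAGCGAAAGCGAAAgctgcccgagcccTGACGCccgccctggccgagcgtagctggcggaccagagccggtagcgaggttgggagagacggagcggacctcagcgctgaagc
The first TAP1 window held overlapping interferon elements on 1 strand and NF-kB matches on both sides of the start, and the TAP2 window held an interferon element and an X2 core. Of the 7 members with a window, 5 held the full interferon element (HLA-F, B2M, TAP1, TAP2 and TAPBP), and of these HLA-F, TAP1 and TAP2 were called higher in M4 against M1 while B2M and TAPBP were not called.

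**Figure D3:**
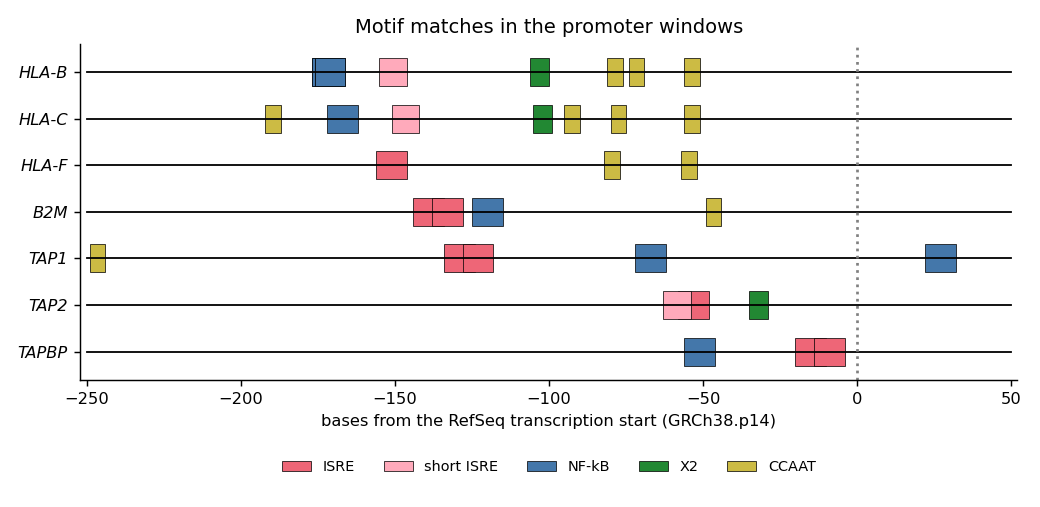
Positions of motif matches on either strand in the RefSeq promoter windows of 7 members, in bases from the transcription start (dotted line), with 1 color for each motif and the first listed start for TAP1. HLA-B and HLA-C share the order of NF-kB, shorter interferon element, X2 and CCAAT matches, with 1 further CCAAT upstream in HLA-C, and TAPBP, B2M and TAP1 each carry a pair of overlapping full interferon elements.

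NLRC5 (chr16:57023397-57117443 on GRCh37, plus strand, 49 exons), the transactivator that drives class I genes, was at 3.40 and 5.09 CPM in M1, 7.32 and 9.23 for M2, 3.41 and 7.55 for M3, and 18.6 and 11.5 for M4. Both M4 libraries were above all 6 others. NLRC5 was 3.55-fold higher in M4 than in M1 (log2 fold change 1.83 ± 0.43 SE, edgeR adjusted p = 0.0160). This call was lost without M4 replicate 1 (1.45, edgeR adjusted p = 0.0891), without M1 replicate 1 (1.58, adjusted p = 0.0761) and with the exchanged names (1.49, adjusted p = 0.134), and it was kept without M4 replicate 2 (2.15, adjusted p = 0.0326). Against M3 its log2 fold change was 1.46 ± 0.43 (adjusted p from edgeR 0.0532), and this passed the threshold in DESeq2 (1.48, adjusted p = 0.00331).

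**Figure D4:**
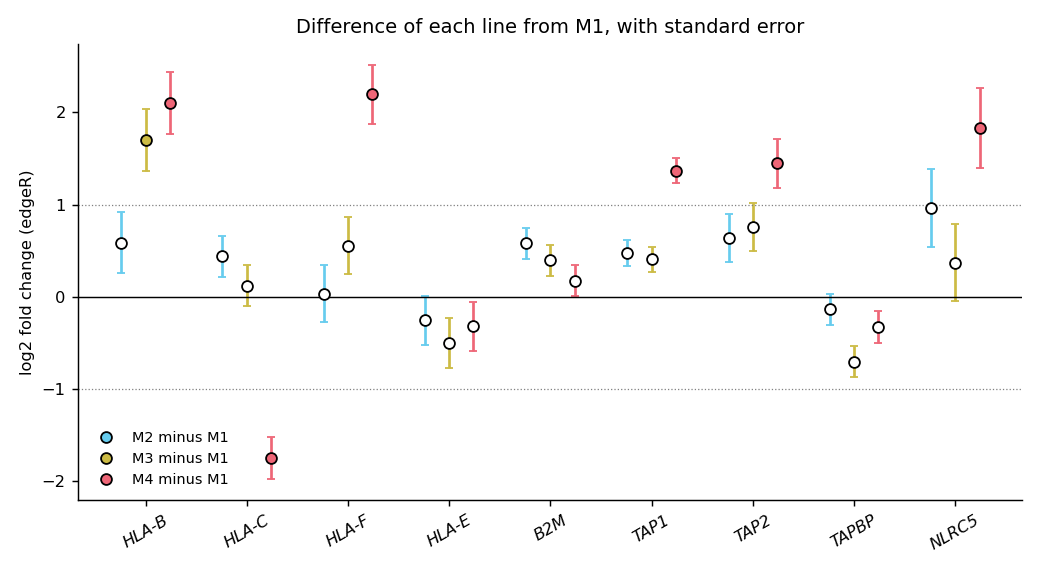
Log2 fold change of M2, M3 and M4 from M1 for each of the 9 genes, with bars of 1 standard error from edgeR, filled circles for called genes and dotted lines at the 2-fold limit. In M4, 5 genes are filled above the upper line and HLA-C below the lower one, and HLA-B is the one filled circle in M3.

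The members differed in how far the M4 replicates lay apart. Relative to the M1 mean, M4 replicate 1 was 5.85-fold and M4 replicate 2 was 2.74-fold higher in HLA-B, and the values were 6.11 and 3.06 for HLA-F and 4.39 and 2.72 for NLRC5. For TAP1 they were 2.78 and 2.39, and for TAP2 2.70 and 2.75. The ratio of M4 replicate 1 to M4 replicate 2 was 2.13 in HLA-B, which was above 95.4% of all tested genes, 1.99 in HLA-F (above 94.3%) and 1.64 in HLA-C (above 89.3%). In TAP1 and TAP2 the ratios were 1.16 and 0.981. HLA-C was thus higher in the M4 library with the interferon-induced genes than in the other one, and both were below M1. The part of the interferon-stimulated genes in these results was not tested.

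**Figure D5:**
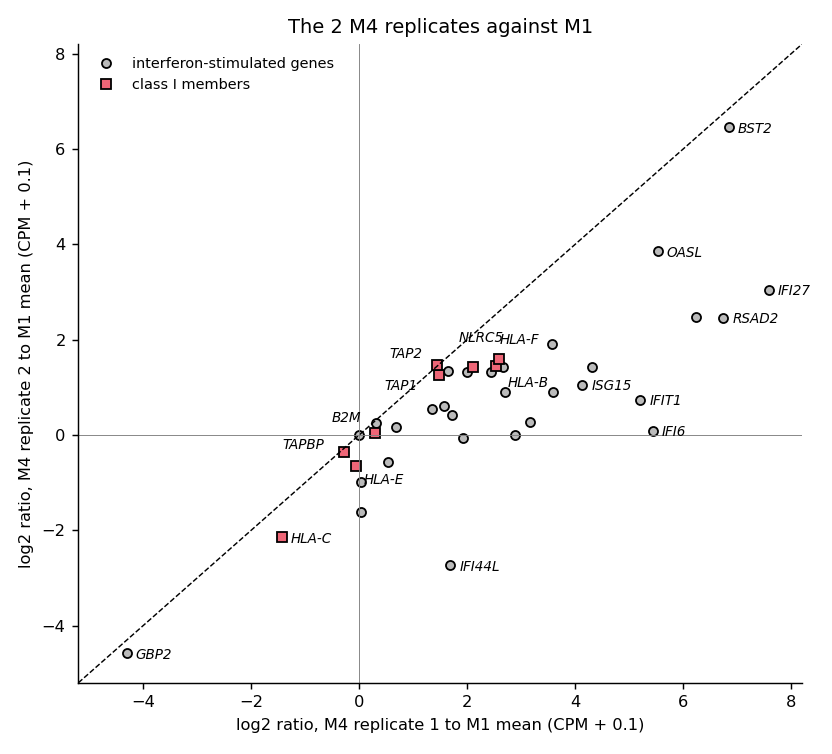
Log2 ratio of M4 replicate 1 (horizontal) and M4 replicate 2 (vertical) to the M1 mean, from CPM with 0.1 added, for the 9 class I genes (squares) and 30 interferon-stimulated genes (circles), with the line of equality dashed. Most circles lie far below the line, with IFI6 at 5.43 and 0.09, while TAP1 and TAP2 lie next to it.

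Among the interferon-stimulated genes, 19 of the 28 tested were higher and 1 (GBP2) lower in M4 against M1, against 9.48% and 11.2% of all tested genes, with a median log2 fold change of 2.29. The count of higher genes depended on single libraries. Without M4 replicate 1 it was 8 of 28 (7.12% of all genes) and without M4 replicate 2 it was 21 of 29 (6.84% of all genes). Without M1 replicates 1 and 2 it was 6 and 8 of 29 (8.99% and 7.62% of all genes), and with the exchanged names it was 7 of 28 (4.01% of all genes). The median log2 fold change was 0.86 without M4 replicate 1 and 3.24 without M4 replicate 2. RSAD2, an antiviral radical enzyme, had 1204 and 35 counts in the M4 libraries and 0 in both of M1. IFI27 was at 0.121 and 0.159 CPM in the M1 libraries and 45.7 and 1.87 CPM in those of M4 (log2 fold change 7.40 ± 1.70 SE, edgeR adjusted p = 0.0162). Its call was lost without M4 replicate 1 (3.74, edgeR adjusted p = 0.0638) and without either M1 replicate (adjusted p = 0.0646 and 0.0656). BST2, or tetherin, which holds budding viruses at the cell surface, differed from these in being high in both M4 libraries and in M3. It was at 0.689 and 1.96 CPM in M1, 0.648 and 0.697 for M2, 105 and 75.8 for M3, and 163 and 125 for M4 (M4 against M1 6.76 ± 0.50, edgeR adjusted p = 0.000226). HERC5 had 0 counts in M1 and stayed at or under 0.215 CPM in each library.

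Of the 16 tested genes for interferon ligands, receptors and JAK-STAT signaling, 2 were higher (IFNE and SOCS1) and 1 lower (IFNGR1) in M4 against M1, beside 9.48% and 11.2% of all tested genes, so these shares were near the background. IFNGR1, a chain of the interferon gamma receptor, was at 151 and 150 CPM in the M1 libraries and 66.1 and 57.5 CPM in those of M4 (log2 fold change -1.28 ± 0.16 SE, edgeR adjusted p = 0.00125), and it was lower in M3 as well (62.3 and 48.6 CPM, adjusted p = 0.00146). With the exchanged names neither fall was called (log2 fold change -0.97 in M4 and -1.13 in M3, edgeR adjusted p = 0.0906 and 0.134). SOCS1, an inhibitor of JAK signaling that interferon induces, was at 0.459 and 0.256 CPM in the M1 libraries and 3.22 and 3.11 CPM in those of M4 (3.14 ± 0.60, adjusted p = 0.00709). IFNE, an epithelial type I interferon, was at 0.447 and 0.451 CPM in the M1 libraries and 2.15 and 2.01 CPM in those of M4 (2.21 ± 0.38, adjusted p = 0.00470), a call lost with the exchanged names (1.44, adjusted p = 0.207). Both replicates of M4 were alike in these genes. IFNL1, a type III interferon, had 62 and 9 counts in M4, 2 and 0 in M1 and 0 in M2 and M3, and IFNG had 0 counts in each library.

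Among 16 regulators of class I promoters, 2 were lower in M4 against M1 (RFX5 and CIITA), a share near the 11.2% of all tested genes, and the other 14 were not called. RFX5, a subunit of the RFX complex that binds the X box beside NLRC5 or CIITA, was at 61.4 and 58.4 CPM in M1, 58.0 and 59.6 for M2, 50.4 and 70.6 for M3, and 25.0 and 24.9 for M4. Both M4 libraries were below all others (M4 against M1, log2 fold change -1.26 ± 0.17 SE, edgeR adjusted p = 0.00192). CIITA, the transactivator of class II genes, was at 0.798 and 3.74 CPM in M1, 2.92 and 2.56 for M2, 0.152 and 0.287 for M3, and 0.211 and 0.218 for M4 (M4 against M1 -3.40 ± 0.74, edgeR adjusted p = 0.0119). The CIITA call was lost without either M4 replicate (edgeR adjusted p = 0.0738 and 0.0767), and that of RFX5 was kept. IRF1, an interferon-induced activator of class I genes, was at 20.4 and 24.3 CPM in M1, 10.1 and 6.39 for M3, and 27.2 and 21.9 for M4. It was lower in M3 than in M1 (-1.44 ± 0.24, edgeR adjusted p = 0.00650) and higher in M4 than in M3 (1.58 ± 0.24, adjusted p = 0.00761), and its log2 fold change in M4 against M1 was 0.13 ± 0.24 (adjusted p = 0.696). The first of these calls was lost with the exchanged names (-1.34, edgeR adjusted p = 0.0658) and the second without M4 replicate 1 (1.41, adjusted p = 0.0523).

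Of 22 genes for peptide supply and loading, 2 were higher (PSMB9 and SEC61A1) and 1 lower (TAPBPL) in M4 against M1, no larger shares than the 9.48% and 11.2% of all tested genes, and the median log2 fold change of the 22 was 0.24. PSMB9, an interferon-inducible subunit of the immunoproteasome whose gene lies next to TAP1, was at 2.28 and 2.35 CPM in M1, 3.53 and 3.33 for M2, 6.44 and 5.88 for M3, and 10.1 and 4.71 for M4 (M4 against M1 1.67 ± 0.37 SE, edgeR adjusted p = 0.0124). Its call was lost without M4 replicate 1 (1.03, edgeR adjusted p = 0.0564) and with the exchanged names (1.35, adjusted p = 0.103). SEC61A1, the channel of the endoplasmic reticulum membrane, was at 300.1 and 313 CPM in the M1 libraries and 659 and 640 CPM in those of M4 (1.08 ± 0.15, adjusted p = 0.00217). TAPBPL, a peptide editor related to tapasin, was at 5.92 and 9.12 CPM in the M1 libraries and 3.41 and 2.27 CPM in those of M4 (-1.40 ± 0.32, adjusted p = 0.0142), and this call was lost without M1 replicate 2 (-1.06, adjusted p = 0.0623), without M4 replicate 2 (-1.12, adjusted p = 0.0899) and with the exchanged names (-0.99, adjusted p = 0.147). ERAP1, which trims peptides in the endoplasmic reticulum, was lower in M3 than in M1 (8.43 and 11.5 against 17.4 and 22.8 CPM, edgeR adjusted p = 0.0159), a call lost without M1 replicate 2, without M3 replicate 1 and with the exchanged names (adjusted p = 0.0611, 0.0581 and 0.217), and its log2 fold change in M4 against M1 was -0.49 ± 0.21 (adjusted p = 0.118). The immunoproteasome subunits PSMB8 and PSMB10 had log2 fold changes of 0.56 and 0.00 in M4 against M1, the trimming enzyme ERAP2 0.43 and the loading chaperones CALR and PDIA3 0.60 and -0.05, none of them called.

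Over the 8 libraries, the mean profile of the 9 members (log2 CPM with 0.5 added, centered on each member's mean) was lowest in M1, at -0.36 and -0.34, near 0 in M2 and M3, and highest in M4, at 0.60 and 0.10. TAP1 followed this mean most closely among the members (Pearson's r = 0.906). HLA-C had a negative r with the mean (-0.535), TAPBP and HLA-E had weak ones (r = -0.276 and -0.112), and B2M followed it weakly (r = 0.360). Each member is itself part of this mean, so the r values of the members are not independent of it. Among all other tested genes, the 10 with the highest correlation had r from 0.949 to 0.985 over the 8 libraries. They were KRT18P10, MEAK7, KRT8, ALKBH5, CYTH4, ZNRD2, KRT8P33, NMI, ANKRD42-DT and ADAM9. KRT8, a keratin of simple epithelia, was at 723 and 788 CPM in the M1 libraries and 2281 and 1351 CPM in those of M4. KRT18P10 and KRT8P33, keratin pseudogenes, were under 2 CPM in each library. These values describe 8 libraries from 4 lines, and all of them share the difference between M4 replicate 1 and the others.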

How the data were processed

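Poly A+ RNA-seq of 8 libraries was analysed from the deposited table of expected counts. Per the study's methods and the submitters' processing notes, the authors trimmed reads with Trimmomatic, aligned them to hg19 with STAR and counted GENCODE v19 genes with RSEM; versions and the use of strand are not given in the sources used here. The deposited expected counts are not normalized, and 12.8% are not whole, so they were rounded. Symbols were matched to 94.4% of the 56632 gene IDs. Lines and replicate numbers came from the sample labels, which call each library a biological replicate.

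Tests used edgeR 4.0.16 in R 4.3.3 (TMM scaling, filterByExpr, robust quasi-likelihood F test, 1 coefficient per line over all 8 libraries). The spread of each gene was shared over the lines, although replicates lay further apart in M1 than in M2. SEs and p-values against M1 may therefore be too small, and those against M2 too large. Each SE was taken from the fold change and its F statistic. DESeq2 1.42.0, other scalings, filters, thresholds, a replicate block, leaving out each library and the exchanged names were alternatives. The members and gene lists were chosen with earlier results of these data known. Genes named beside the members are those of each list called in at least 1 comparison, up to the 4 with the largest change in M4 against M1, and 10 fixed partners of the members. Others were named after their values were seen (IFIT1, IFI6, IFNB1, IFNG, IRF9, STAT2, KRT5, PTPRC, CD3E, MS4A1, HLA-F-AS1, PSMB8-AS1). 2 further genes are not reported here. On simulated counts for M4 against M1, the test called 10 of 49 genes changed 2-fold (the fold limit of a call itself), 22 of 50 changed 4-fold and 36 of 49 changed 8-fold, and 8 of 17685 unchanged genes. The simulated counts had the same spread in all lines and few changed genes. Their rates therefore need not hold for these data, where the spread differed between lines. Gene coordinates are from GENCODE release 44 mapped to GRCh37, and promoter sequences from RefSeq on GRCh38.p14. Figures and sums were made in Python 3.11.15 with pandas 2.3.3.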

Additional observations from a re-analysis of the deposited data

How the results depend on the processing

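The call of the members in M4 against M1 gave 6 of 9 under each alternative that kept all 8 libraries as labelled, 4 of 9 with the exchanged names of M1 replicate 2 and M2 replicate 1, and 5 to 6 of 9 when 1 library was left out. Leaving out 1 library gave 0 to 1 of 9 in M2 against M1, 1 in M3 against M1 (TAP2 in place of HLA-B without M1 replicate 1, as also in M2 against M1), 0 in M3 against M2, 2 to 4 in M4 against M2 and 1 to 3 in M4 against M3, where the 1 was without M4 replicate 1. With the exchanged names, M3 against M1 had 0 calls, as HLA-B lost its own, and M4 against M2 had 5. Calls over all tested genes in M4 against M1 also fell under these names, to 4.01% higher and 4.45% lower, from 9.48% and 11.2%. The member counts with 1 library left out are given without the share of all genes in each fit. They are therefore no measure of the members against other genes. In M3 against M1, 2 members passed the p threshold without a fold minimum. In M3 against M2, HLA-B was the 1 member called with DESeq2, with no filter on low counts and with only those 2 lines in the fit, and 1 member passed the 2-fold rule in both replicates.

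Directions turned only in members without a call. Log2 fold changes with the exchanged names were 0.033 for B2M and 0.13 for TAP1 in M3 against M2, -0.10 for B2M in M4 against M1, -0.13 for HLA-C, -0.10 for HLA-F, -0.38 for TAP2 and 0.17 for TAPBP in M2 against M1, and -0.18 for HLA-C in M3 against M1. When 1 library was left out, the range in M3 against M2 was -0.64 to 0.067 for HLA-E and -0.16 to 0.026 for TAP1, with the higher value without M3 replicate 2. In M3 against M1 it was -0.31 (without M3 replicate 2) to 0.84 for NLRC5. In M4 against M3 it was -0.14 to 0.57 for HLA-E and -0.25 (without M4 replicate 1) to 0.86 for HLA-B. In M4 against M2 it was -0.39 to 0.22 for HLA-E, and in M2 against M1 it was -0.019 to 0.089 for HLA-F and up to 0.066 for TAPBP (without M1 replicate 2). The causes were not tested. The share of all genes called also depended on single libraries, for example 0.0102% in M2 against M1 without M2 replicate 1 and 12.3% in M4 against M1 without M4 replicate 2.

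The replicate numbers are shared by the lines, and the correlation of deviations between same-numbered libraries was from -0.03 to 0.15 over the 6 pairs of lines. It was 0.15 for M3 with M4 and from -0.03 to 0.03 for the other pairs. Little pairing was thus seen outside M3 and M4, where a weak shared difference was present. With the replicate block, 6 members were called in M4 against M1 and 3 in M4 against M3, where NLRC5 passed the threshold (log2 fold change 1.56, edgeR adjusted p = 0.0494). An uncalled member may still differ. In simulated counts, which had the same spread in all lines unlike these data, 22 of 50 genes changed 4-fold were called. Exact windows of 50 bases shared with another class I heavy chain made up 2.49% of the HLA-B and 6.63% of the HLA-C transcript, and 0% and 0.277% at 100 bases. Reads of alleles that differ from the reference were not followed.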

Other observations

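Of the 6 tested genes for other class I and class I-like chains, MICB and FCGRT showed the largest changes in M4. MICB, a stress ligand of the NKG2D receptor on natural killer cells, was at 5.15 and 3.37 CPM in M1, 6.35 and 6.24 for M2, 2.40 and 1.47 for M3, and 30.1 and 34.0 for M4. It was higher in M4 than in M1 (log2 fold change 2.91 ± 0.31 SE, edgeR adjusted p = 0.000685) and lower in M3 than in M1 (-1.14 ± 0.30, adjusted p = 0.0323). The M3 call was lost without M1 replicate 1, without M3 replicate 2 and with the exchanged names (edgeR adjusted p = 0.121, 0.123 and 0.101), and the M4 call was kept without each M1 or M4 replicate and with the exchanged names. The M4 replicates were alike in MICB. MICA, a second NKG2D ligand, was higher in M3 than in M1 (1.17 ± 0.23, edgeR adjusted p = 0.0117), a call lost without M1 replicate 2 (0.87, under the 2-fold limit) and with the exchanged names (0.66, adjusted p = 0.360), and in M4 its log2 fold change was 0.95 ± 0.23 (adjusted p = 0.0172), under the 2-fold limit. FCGRT, the heavy chain of the neonatal Fc receptor that also pairs with B2M, was at 4.29 and 18.8 CPM in M1, 3.16 and 2.53 for M2, 3.57 and 3.82 for M3, and 0.0793 and 0.167 for M4 (M4 against M1 -6.58 ± 0.81 SE, edgeR adjusted p = 0.00130). HLA-G, a heavy chain of the placenta, had 32 and 6 counts in M4 and at most 1 count in each of the other libraries, and it was too low to be tested.

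CD74, the invariant chain of class II molecules, was at 0.435 and 16.5 CPM in M1, 41.2 and 40.9 for M2, 20.5 and 25.0 for M3, and had 0 and 1 counts in M4. The M1 replicates differed in CD74 more than the M2 or M3 replicates did. CIITA, which drives it, was at 0.152 and 0.287 CPM in M3, where CD74 was at 20.5 and 25.0 CPM.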
